A study of Mus musculus with 9 samples.

Results

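The transcripts of 9 enzymes of the citric acid cycle were examined in sorted proximal tubular epithelial cells: Cs, Idh3a, Idh3b, Idh3g, Ogdh, Suclg2, Sdhb, Fh1 and Mdh2. They were chosen by gene symbol from the deposited table, in which 9 of the 9 are present among 24421 rows, and 9 of the 9 passed the filter on low counts with 15583 genes in all. Sequenced were 3 *db/m* mice, 3 untreated *db/db* mice and 3 treated ones (*db/db*-dapa), on the C57BL/6 background. *db/db* mice lack a working leptin receptor and turn obese and diabetic, and *db/m* mice served as non-diabetic controls. All 9 mice carried CreERT2 in the Slc34a1 locus, a gene of the proximal tubule, and a tdTomato reporter in the R26 locus. All received tamoxifen from 8 weeks of age. *db/db*-dapa mice were given dapagliflozin, an inhibitor of the glucose transporter SGLT2, at 1.5 mg/kg/day in drinking water for 8 weeks, while *db/db* mice were given vehicle. The labels name the tissue as kidney, and the sort by tdTomato is described in the study's methods. Each library is labelled as a separate mouse.

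The citric acid cycle runs in the mitochondrial matrix. It oxidizes the acetyl group of acetyl-CoA to carbon dioxide and passes the electrons to the respiratory chain as NADH and as reduced flavin. Proximal tubular cells are rich in mitochondria and draw on fatty acids, lactate, glutamine and ketone bodies to power reabsorption, and they withdraw malate from the cycle for gluconeogenesis. Several of the cycle's enzymes are assembled from subunits encoded by separate genes, and transcript levels are not enzyme activities.

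None of the 9 transcripts differed between any pair of groups at the threshold used, an adjusted p under 0.1. The largest difference was that of Suclg2, which lay 1.42-fold above *db/m* in the *db/db*-dapa mice, with an adjusted p of 0.196 (edgeR's quasi-likelihood test, adjusted over 15583 genes by Benjamini-Hochberg). Levels are given as CPM, counts relative to the library's total after scaling by edgeR's TMM method. Log2 fold changes were fitted on the counts of the 9 mice together, and each standard error comes from the F statistic of the test.

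The libraries held between 2733349 and 9033123 estimated counts, and the smallest count of a member was 439, for Idh3a in *db/db* replicate 1. Counts from 10 marker genes of the proximal tubule, all 10 detected in each group, summed to 13256 to 14763 CPM in *db/m*, 16774 to 20594 in *db/db* and 17611 to 21793 in *db/db*-dapa mice. Markers of other cells were also present: 3 of 3 genes of the thick ascending limb were detected in each group and summed to at most 1626 CPM, and 6 of 6 immune genes summed to at most 454. The sum of 5 markers of the S3 segment was 697 to 856 CPM in *db/m*, 53.7 to 341 in *db/db* and 241 to 391 in *db/db*-dapa mice. The part of these marker differences in the values below was not tested. In sorted but pooled cells, fewer cells of a type and less RNA per cell cannot be told apart.

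The cycle opens with citrate synthase, encoded by Cs, which joins acetyl-CoA to oxaloacetate. Cs lies on chromosome 10 from 128337734 to 128362479 of GRCm38. In *db/m* mice the 3 values were 316, 313 and 294 CPM, in *db/db* mice 295, 329 and 312, and in *db/db*-dapa mice 313, 362 and 349. The values of each group overlapped with those of the others, and the highest 2 belonged to *db/db*-dapa replicates 2 and 3. edgeR's fit gave a log2 fold change of 0.021 (standard error 0.15) for *db/db* against *db/m* and 0.13 (standard error 0.15) for *db/db*-dapa against *db/db*.

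Idh3a, Idh3b and Idh3g encode the subunits of the NAD-dependent isocitrate dehydrogenase, which converts isocitrate to alpha-ketoglutarate. Idh3a, on chromosome 9 from 54586334 to 54604661, encodes the catalytic alpha subunit. It was found at 155, 154 and 135 CPM in *db/m*, at 149, 192 and 170.0 in *db/db*, and at 171, 189.6 and 179.7 in *db/db*-dapa mice. The *db/db*-dapa mice all lay above the *db/m* mice, whereas *db/db* replicate 1 lay within the range of *db/m* mice. Against *db/m*, *db/db* mice differed by a log2 fold change of 0.20 (standard error 0.16) and *db/db*-dapa mice by 0.29 (standard error 0.16).

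Idh3b, on chromosome 2 from 130279309 to 130284547, encodes the beta subunit. Its values were 334, 368 and 352 CPM in *db/m*, 355, 377 and 333 in *db/db*, and 349.9, 388 and 379.5 in *db/db*-dapa mice. It was the steadiest of the 9 transcripts, with a coefficient of variation of 5.46% over the 9 mice, and the 3 groups overlapped. Idh3g, on chromosome X from 73778963 to 73786897, encodes the gamma subunit and was counted at 345, 341 and 415 CPM in *db/m*, 364, 400.4 and 309.9 in *db/db*, and 322, 358 and 339 in *db/db*-dapa mice. Here the extremes were *db/m* replicate 3 and *db/db* replicate 3. The groups overlapped again, and the log2 fold change of Idh3g was -0.11 (standard error 0.17) for *db/db*-dapa against *db/m*.

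Ogdh encodes the component of the alpha-ketoglutarate dehydrogenase complex that decarboxylates its substrate, and lies on chromosome 11 from 6291633 to 6356642. In *db/m* mice it was at 768, 765 and 662 CPM, in *db/db* mice at 673, 759 and 968, and in *db/db*-dapa mice at 794, 1036 and 1009.9. The *db/db*-dapa mice were all above the *db/m* mice. *db/db* replicate 3 stood with *db/db*-dapa replicates 2 and 3, and *db/db* replicate 1 with *db/m* replicate 3. Ogdh differed by a log2 fold change of 0.37 (standard error 0.19, 95% confidence interval -0.047 to 0.79) for *db/db*-dapa against *db/m* and 0.24 (standard error 0.19) for *db/db*-dapa against *db/db*.

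Suclg2 encodes the beta subunit of the form of succinyl-CoA ligase that uses guanine nucleotides, and spans 95473009 to 95718800 on chromosome 6. Its transcript stood at 567, 594 and 555 CPM in *db/m*, at 586, 668 and 673 in *db/db*, and at 672, 899 and 872 in *db/db*-dapa mice. The 3 *db/db*-dapa mice all lay above the 3 *db/m* mice, but *db/db*-dapa replicate 1 lay just below *db/db* replicate 3. Against *db/m*, the log2 fold change of *db/db*-dapa mice was 0.51 (standard error 0.17, 95% confidence interval 0.14 to 0.88), with an adjusted p of 0.196 in edgeR's quasi-likelihood test. Against *db/db* it was 0.34 (standard error 0.17, 95% confidence interval -0.031 to 0.71), with an adjusted p of 0.854. For *db/db* against *db/m* it was 0.17 (standard error 0.17).

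Sdhb, on chromosome 4 from 140961203 to 140979193, encodes the iron-sulfur subunit of succinate dehydrogenase, which is also complex II of the respiratory chain. Its values were 472, 432 and 613 CPM in *db/m*, 508, 611 and 381 in *db/db*, and 456, 451 and 452 in *db/db*-dapa mice. The *db/db*-dapa mice had an SD of 2.78 CPM and lay inside the range of both other groups, whose SD was 94.9 CPM in *db/m* and 115 in *db/db* mice (n = 3 each). Sdhb differed by a log2 fold change of -0.14 (standard error 0.21) for *db/db*-dapa against *db/db*.

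The cycle closes with fumarase and malate dehydrogenase. Fh1, the fumarase gene, spans 175600374 to 175625635 on chromosome 1. It was counted at 269, 245 and 238 CPM in *db/m*, 240.0, 297 and 221 in *db/db*, and 244, 256 and 256 in *db/db*-dapa mice. *db/db* mice held both the highest and the lowest value, and the fitted log2 fold change for *db/db*-dapa against *db/db* was -0.0035 (standard error 0.16). Mdh2, on chromosome 5 from 135778480 to 135790398, encodes the mitochondrial malate dehydrogenase. It was found at 639.8, 579 and 736 CPM in *db/m*, at 590.0, 771 and 500.0 in *db/db*, and at 663, 635 and 550.2 in *db/db*-dapa mice. As with Fh1, the extremes were both *db/db* mice, replicates 2 and 3, and the log2 fold change for *db/db*-dapa against *db/db* was -0.0097 (standard error 0.20).

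**Figure D1:**
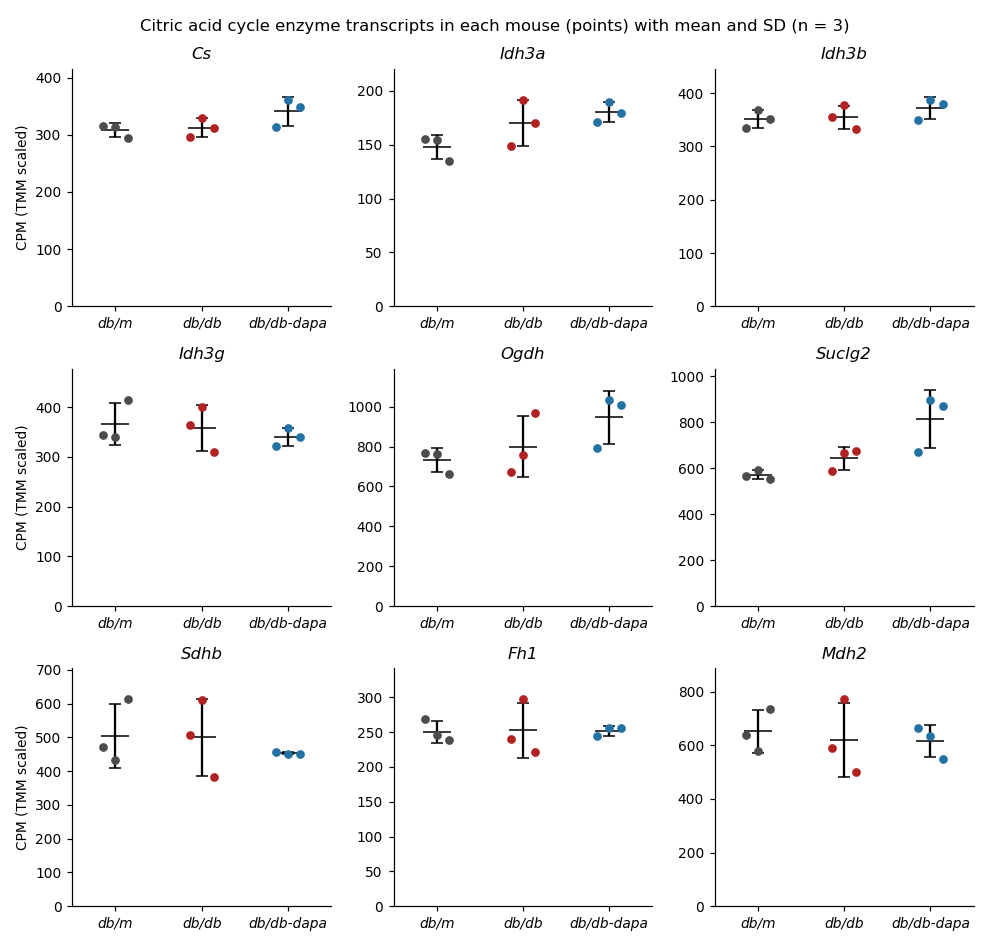
Level of each enzyme transcript, in CPM after TMM scaling, with 1 point per mouse and 1 panel per gene. The long horizontal mark is the mean and the bar the SD of the 3 mice of a group. The *db/db*-dapa mice lie above the *db/m* mice for Idh3a, Ogdh and Suclg2, and the groups overlap for the other 6 genes.

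For *db/db* against *db/m*, none of the 9 transcripts passed and their fitted differences were small. Of the 9, 6 were fitted higher and 3 lower, 0 passed the adjusted p of 0.1, and the lowest adjusted p was 0.607, for Idh3a (edgeR). The median log2 fold change of the 9 was 0.016, and that of all 15583 genes 0.020. With a mouse left out the median of the 9 ran from -0.030 (3 higher and 6 lower, without *db/db* replicate 2) to 0.057 (8 higher, without *db/db* replicate 3). Over all genes 261 passed, which is 1.67%, and 194 of them, or 1.24%, also changed more than 2-fold. Of those 194, 85 were higher and 109 lower in *db/db* mice. With libraries scaled to their totals instead, 234 genes met both limits, 141 higher and 93 lower. Groups without overlap were seen for 0 of the 9 transcripts and for 16.4% of all genes.

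Against *db/m*, the *db/db*-dapa mice had 6 of the 9 transcripts again fitted higher and 3 lower, with a median log2 fold change of 0.085 against -0.022 for all genes. Here too 0 of the 9 passed, with Suclg2 lowest at an adjusted p of 0.196, followed by Ogdh at 0.315 and Idh3a at 0.346 (edgeR's quasi-likelihood test). Of all genes, 204, or 1.31%, passed and 164, or 1.05%, were also changed more than 2-fold. Idh3a, Ogdh and Suclg2, 3 of the 9, had all of their *db/db*-dapa values above all of their *db/m* values. The share of all genes without overlap in this comparison was 28.1%, so 3 of 9 was close to the background. Whether Suclg2 passed depended on the test and on the mice: the adjusted p was 0.0377 with DESeq2, at a log2 fold change of 0.50, and 0.0877 with edgeR when *db/db* replicate 3 was left out, at 0.52.

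The treated and untreated diabetic mice were compared in the same way. Of the 9 transcripts, 5 were fitted higher and 4 lower, with a median log2 fold change of 0.069 against -0.0094 for all genes. Single mice moved this median, which was -0.0069 (4 higher) without *db/db* replicate 1 and 0.17 (9 of 9 higher) without *db/db* replicate 2. It was 0.0053 with libraries scaled to their totals and -0.037 without 3 libraries rich in long transcripts, which are *db/db* replicate 3 and *db/db*-dapa replicates 2 and 3. Neither any member nor any other gene passed (0%) or also changed more than 2-fold (0%) in edgeR's quasi-likelihood test. Before adjustment, 808 genes and 0 of the 9 members had a p under 0.05, and DESeq2 called 13 genes and 0 of the members. The groups overlapped for all 9 members, while they did not for 10.2% of all genes. The intervals set a limit on what these mice can show. For Fh1 the 95% confidence interval ran from -0.36 to 0.36 on the log2 scale, for Cs from -0.20 to 0.46 and for Sdhb from -0.59 to 0.31.

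**Figure D2:**
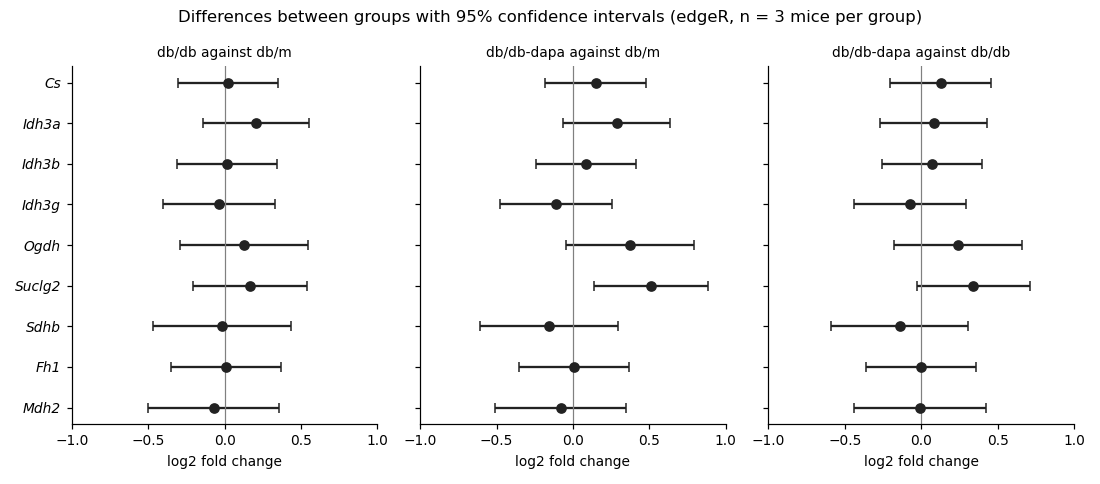
Fitted log2 fold change of each enzyme transcript (points) with its 95% confidence interval (bars) in the 3 comparisons, from edgeR with 3 mice per group. The interval lies off 0 only for Suclg2 for *db/db*-dapa against *db/m*, from 0.14 to 0.88.

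Compared per length, the transcripts differed from each other more than the groups did. CPM was divided by the length in kilobases of the gene's longest annotated transcript and averaged over the 9 mice. Sdhb and Mdh2 were the most abundant, at 395 ± 63.8 and 391.9 ± 53.9 CPM per kilobase (SD, n = 9 mice each). Suclg2 at 201 ± 37.8, Ogdh at 200.2 ± 34.4, Idh3b at 175 ± 9.58 and Idh3g at 171 ± 16.5 came next. Cs at 107 ± 7.56, Fh1 at 95.5 ± 8.19 and Idh3a at 64.4 ± 7.50 were lowest (SD, n = 9 mice each). The catalytic subunit of the isocitrate dehydrogenase was thus counted less per length than its beta and gamma subunits in these libraries.

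Only some neighbours in this order were apart in every mouse. Mdh2 was above Suclg2, Idh3g above Cs and Fh1 above Idh3a in 9 of 9 mice. Sdhb was above Mdh2 in 4 of 9, Suclg2 above Ogdh in 6, Ogdh above Idh3b in 6, Idh3b above Idh3g in 5 and Cs above Fh1 in 8. With the length of all merged exons instead, Sdhb stayed highest and Idh3a lowest, at 217 and 32.8 CPM per kilobase, and Ogdh with Suclg2, Idh3g with Idh3b and Fh1 with Cs traded places.

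**Figure D3:**
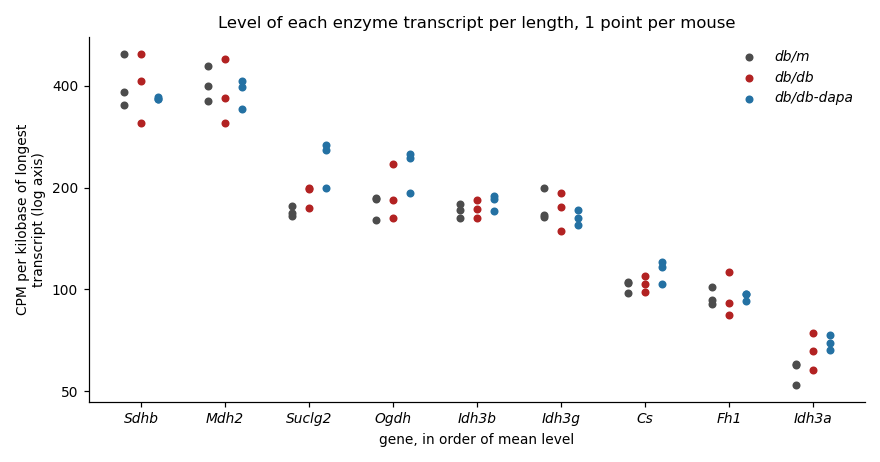
CPM per kilobase of the longest transcript on a log axis, 1 point per mouse, for the 9 genes in the order of their mean level. Sdhb and Mdh2 overlap at the top near 390 and Idh3a lies lowest near 64 in all 3 groups.

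Counts of related subunits were compared in each mouse as a ratio of counts, not divided by length. These were partners within an enzyme or, for Suclg2 and Sucla2, the alternative beta subunits of different ligase forms. Idh3a over Idh3g was 0.45, 0.45 and 0.32 in *db/m*, 0.41, 0.48 and 0.55 in *db/db*, and 0.53, 0.53 and 0.53 in *db/db*-dapa mice. The ratio was nearly equal in the 3 *db/db*-dapa mice and inside the range of *db/db* mice. Suclg2 over Sucla2, which encodes the beta subunit of the ligase form that uses adenine nucleotides, was 2.59, 2.24 and 2.45 in *db/m*, 2.87, 3.27 and 2.66 in *db/db*, and 2.80, 3.27 and 3.15 in *db/db*-dapa mice. The *db/m* mice had the 3 lowest ratios of this pair. Sdha, the flavoprotein subunit that partners Sdhb, was counted between 1.32 times (*db/m* replicate 3) and 2.59 times (*db/db* replicate 3) as often as Sdhb.

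The 9 transcripts did not move as a block from mouse to mouse. Over the 36 pairs of members, Pearson's r of log2(CPM + 1) across the 9 mice had a median of 0.39 and ran from -0.65 for Ogdh with Sdhb to 0.94 for Idh3g with Sdhb. It was negative for 13 of the 36 pairs. Cs, Ogdh, Suclg2 and Idh3a varied together, with r of 0.91 for Cs with Suclg2 and 0.88 for Ogdh with Suclg2. Sdhb, Mdh2 and Idh3g formed another set, with r of 0.88 for Sdhb with Mdh2 and 0.79 for Idh3g with Mdh2. These correlations describe 9 libraries that include the 3 groups, and the genes of a library share its depth and its composition.

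The sets differed in transcript length. The longest transcripts of Ogdh, Suclg2 and Cs measure 4127, 3367 and 3003 bases, and those of Sdhb and Mdh2 1232 and 1606. Those of Idh3a and Idh3g, at 2580 and 2080, lie between. Length did not sort all members: Idh3b, at 2049, varied more with Cs (r 0.69) than with Sdhb (0.22). Fh1, at 2636, varied more with Mdh2 (0.63) than with Cs (0.43). Over 9082 genes at 10 CPM or more, Spearman's rho between a library's deviation from the mean of the 9 and transcript length was 0.61 in *db/db* replicate 3 and 0.46 and 0.52 in *db/db*-dapa replicates 2 and 3. In the other 6 libraries it ran from -0.53 (*db/m* replicate 3) to -0.087 (*db/db*-dapa replicate 1). Over the 9 members alone the same measure was 0.83, 0.83 and 0.88 in those 3 libraries and -0.88 in *db/m* replicate 3. It was -0.82 and -0.83 in *db/db* replicates 1 and 2. Both of these sets of values are across genes, which are not independent replicates.

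The 3 libraries in which long transcripts were high were also those with the highest Ogdh, at 968, 1036 and 1009.9 CPM. After each library's trend on length was removed, the SD of the 9 mice on the log2 scale was 0.15 in place of 0.24 for Ogdh, 0.13 in place of 0.22 for Sdhb and 0.12 in place of 0.20 for Mdh2. It was 0.22 in place of 0.26 for Suclg2, 0.20 in place of 0.17 for Idh3a and 0.14 in place of 0.079 for Idh3b. The log2 fold change of Suclg2 for *db/db*-dapa against *db/m* was then 0.45 (adjusted p = 0.178, edgeR's quasi-likelihood test), and that of Ogdh 0.23. Without those 3 libraries, which leaves 1 *db/db*-dapa mouse, the values were 0.23 for Suclg2 and 0.12 for Ogdh. With the trend removed, 9 of the 9 transcripts were fitted above *db/m* mice in both other groups, with medians of 0.13 in the untreated and 0.19 in the treated diabetic mice against 0.034 and -0.030 for all genes, and 0 passed.

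**Figure D4:**
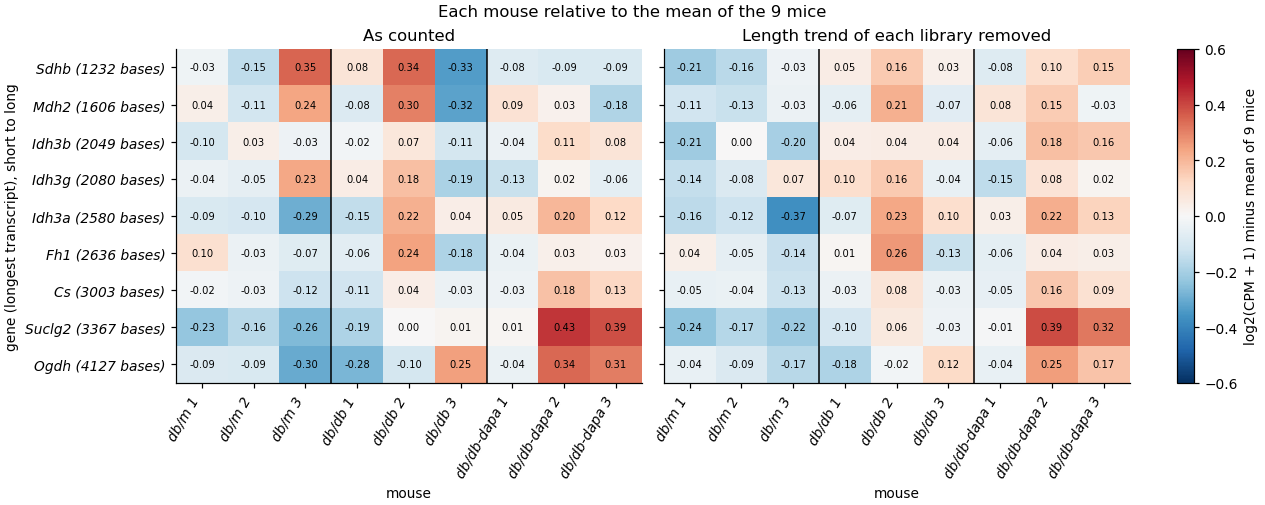
Each square gives a transcript's log2(CPM + 1) in 1 mouse minus its mean over the 9 mice, with genes from the shortest (top) to the longest transcript (bottom), as counted on the left and with each library's length trend removed on the right. On the left, *db/db* replicate 3 turns from -0.33 for Sdhb to 0.25 for Ogdh and *db/m* replicate 3 from 0.35 to -0.30.

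The promoters of a pair from each set are shown because, as counted, Ogdh and Suclg2 varied together over the mice, and so did Sdhb and Mdh2. As counted, Ogdh and Sdhb deviated in opposite directions in *db/m* replicate 3, all *db/db* mice and *db/db*-dapa replicates 2 and 3. With each library's length trend removed, they did so only in *db/db* replicates 1 and 2. The correlations were not recomputed with the trend removed, and the part of length in these sets was not tested. The sequences are those of RefSeq on GRCm38.p6, whose table holds 8 of the 9 members, and are written from 5′ to 3′ on the gene's strand. Each ends at the annotated start or, for Sdhb and Mdh2, at the last base before an annotated exon. Ogdh has several annotated starts, and the one farthest upstream was taken. The bases just after the starts printed for Ogdh and Suclg2 were found in no transcript of the gene in the GENCODE annotation. Capitals mark matches, on either strand, to the motifs that follow.
Ogdh (chr11:6291347-6291596, plus strand): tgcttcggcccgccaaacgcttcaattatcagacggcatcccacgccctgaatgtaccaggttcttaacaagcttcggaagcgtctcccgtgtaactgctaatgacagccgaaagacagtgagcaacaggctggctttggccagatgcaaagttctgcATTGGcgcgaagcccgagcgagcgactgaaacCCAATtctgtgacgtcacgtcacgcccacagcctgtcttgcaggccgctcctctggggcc
Suclg2 (chr6:95718847-95719096, minus strand): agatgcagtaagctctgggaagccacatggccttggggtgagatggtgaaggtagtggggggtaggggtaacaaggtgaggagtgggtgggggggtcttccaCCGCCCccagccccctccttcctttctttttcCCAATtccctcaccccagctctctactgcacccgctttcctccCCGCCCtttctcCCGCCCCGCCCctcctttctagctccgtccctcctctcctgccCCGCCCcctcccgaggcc
Sdhb (chr4:140961021-140961202, plus strand): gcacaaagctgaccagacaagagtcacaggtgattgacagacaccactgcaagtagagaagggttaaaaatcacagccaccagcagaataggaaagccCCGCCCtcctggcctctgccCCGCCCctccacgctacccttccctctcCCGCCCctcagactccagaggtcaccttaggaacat
Mdh2 (chr5:135778399-135778479, plus strand): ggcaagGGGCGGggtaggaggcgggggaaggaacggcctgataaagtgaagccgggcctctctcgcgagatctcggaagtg

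The 250 bases before each annotated start were searched on both strands for 6 motifs, and the same was done for all 32851 windows of the table. GGGCGG, the GC box bound by SP1, was present for 6 of the 8 members (Cs, Ogdh, Suclg2, Sdhb, Fh1 and Mdh2) and in 32.7% of all windows. CCAAT, the NFY box, was present for 6 of the 8 (Cs, Idh3b, Ogdh, Suclg2, Sdhb and Fh1) and in 33.8% of windows. Suclg2 had 5 copies of the GC box, of which a neighbouring pair shares a base, and Sdhb had 3. The NRF1 motif GCGCATGCG was found in a window of Ogdh (1.45% of all windows) and the ETS motif CCGGAAG in that of Idh3g (6.91%). AAGGTCA, bound by ESRRA (4.08% of windows), and ATGGCGGC, bound by YY1 (1.03%), were found for 0 of the 8. Ogdh had 6 windows and the other members 1 each, so that a match was likelier for Ogdh. The GC box and NRF1 motif of Ogdh and the CCAAT box of Sdhb lay outside the stretches printed above. The GC box occurred in both sets of transcripts.

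The remaining genes of the cycle did not pass either. Of 14, 13 were tested and 0 passed in any comparison, and Csl, another citrate synthase-like gene, was listed at 0 in all mice. In *db/db*-dapa mice 5 of these 13 lay above *db/m* without overlap, beside 28.1% of all genes without overlap in either direction, and Aco1, the cytosolic aconitase, had the highest fitted value of them on the log2 scale, 0.68 (adjusted p = 0.212, edgeR's quasi-likelihood test). Aco1 was also highest for *db/db*-dapa against *db/db*, at 0.36, and Ogdhl, a relative of Ogdh with few counts, lowest at -0.63. The 4 genes of 10 CPM or more whose levels over the 9 mice were most like the mean of the members, among 9126 compared, were Ak3 (Pearson's r 0.93), Ypel2 (0.90), Pck1 (0.90) and Tsc22d4 (0.89).

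Around the cycle, 2 of 13 genes of pyruvate entry and 1 of 16 of anaplerosis and cataplerosis passed for *db/db* against *db/m*, where 1.67% of all genes did. Pyruvate dehydrogenase kinases switch off the enzyme that feeds acetyl-CoA to Cs. Pdk1 rose and Pdk3 fell, and the other 11 genes of pyruvate entry did not pass. Among those 11 was the highest fitted log2 fold change of the list, 2.57. For *db/db*-dapa against *db/m* the highest, 2.13, was also that of a gene that did not pass. Pdk1 was at 17.2, 16.2 and 24.6 CPM in *db/m*, at 41.1, 48.4 and 55.1 in *db/db*, and at 32.4, 38.7 and 36.0 in *db/db*-dapa mice. The groups did not overlap, and *db/db*-dapa mice lay between the others. Against *db/m*, Pdk1 rose by 1.33 on the log2 scale (standard error 0.20, adjusted p = 0.0132, edgeR's quasi-likelihood test) in *db/db* mice and by 0.89 (standard error 0.20, adjusted p = 0.0905) in *db/db*-dapa mice. The second of these differences no longer passed with the length trend removed (0.63, adjusted p = 0.180). Nor did it pass without replicate 1 or 2 of *db/m*, replicate 2 of *db/db*, or replicate 2 or 3 of the treated mice, where it stayed at 0.78 to 0.90 with adjusted p from 0.114 to 0.403.

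Pdk3 was at 40.6, 46.8 and 43.5 CPM in *db/m*, at 18.7, 18.2 and 21.6 in *db/db*, and at 29.7, 29.9 and 28.7 in *db/db*-dapa mice. Again *db/db*-dapa mice lay between the other groups without overlap. Pdk3 had a log2 fold change of -1.16 (standard error 0.16, adjusted p = 0.00884, edgeR's quasi-likelihood test) for *db/db* against *db/m* and 0.59 (standard error 0.16, adjusted p = 0.854) with treatment, as *db/db*-dapa against *db/db*. Of 21 alternatives, the latter passed only with limma-voom and sample weights (adjusted p = 0.0912) and, in edgeR, without *db/db* replicate 3 (0.0951). For *db/db*-dapa against *db/m*, Pdk3 did not pass in edgeR's fit of the 9 mice. It passed there with DESeq2 (-0.58, adjusted p = 0.0238), with sample weights, with only these groups fitted and without *db/db* replicate 3. Pdk4 had the lowest value of the list for *db/db*-dapa against *db/db*, -0.71 (standard error 0.62).

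Me1, the cytosolic malic enzyme, which turns malate that has left the mitochondria into pyruvate with the formation of NADPH, was the only gene to pass among 16 of anaplerosis and cataplerosis. Its values were 607, 620.3 and 567 CPM in *db/m*, 228, 307 and 345 in *db/db*, and 430.4, 465 and 526 in *db/db*-dapa mice. It fell by 1.03 on the log2 scale (standard error 0.19, adjusted p = 0.0307, edgeR's quasi-likelihood test) for *db/db* against *db/m*, and the difference was about as large but did not pass without *db/m* replicate 1 (-1.02, adjusted p = 0.123) or in a fit of only these 2 groups (-1.03, adjusted p = 0.107). Me1 was higher without overlap in treated than in untreated diabetic mice, by 0.69 (standard error 0.19), and the adjusted p was 0.854, or 0.0834 without *db/db* replicate 3. Me3, a mitochondrial malic enzyme, had the lowest value of the list there, -0.38 (standard error 0.41).

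**Figure D5:**
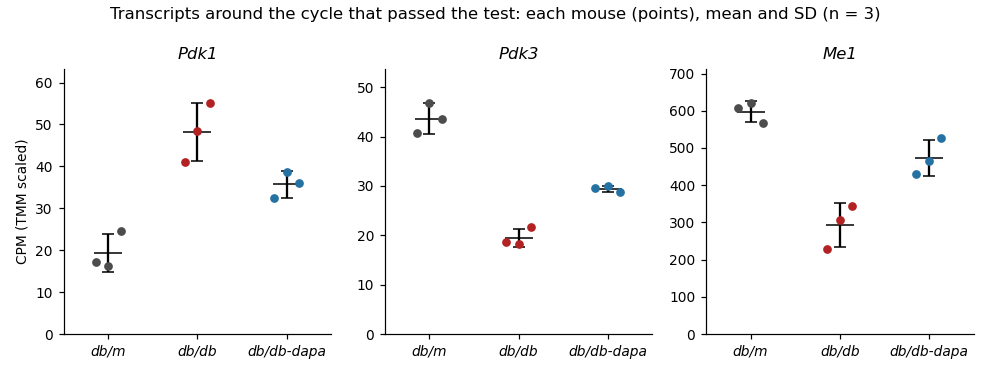
CPM of Pdk1, Pdk3 and Me1 in each mouse (points) with the mean (long mark) and SD (bar) of the 3 mice of a group. For each gene the *db/db*-dapa mice lie between the *db/m* and the *db/db* mice, without overlap. The genes were picked because they passed for *db/db* against *db/m*, which favours this order. None passed for *db/db*-dapa against *db/db* in edgeR's fit of all mice.

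In the other lists 0 genes passed in any comparison. Of 12 genes of mitochondrial import and the outer membrane, 12 were fitted lower in *db/db* than in *db/m* mice, with a median log2 fold change of -0.23, and 4 of them did not overlap, beside 16.4% of all genes. Hspd1, a chaperonin of the matrix, was at 945 ± 156 CPM in control mice, 652 ± 86.5 in untreated diabetic and 924 ± 52.6 in treated mice, each with the SD of 3 mice. It is named because it was highest of the list for *db/db*-dapa against *db/db*, at 0.50, which favours a higher value under treatment. The lowest adjusted p of the list there was 0.854 (edgeR's quasi-likelihood test). Vdac2, a channel of the outer membrane, was lowest of the list in that comparison at -0.13. Of 14 subunits of the respiratory chain and ATP synthase, 11 were fitted lower in *db/db* than in *db/m* mice. The median log2 fold change of these 14 was -0.12, and 51.6% of all genes were fitted higher. Their mean log2(CPM + 1) was 9.16, 9.11 and 9.54 in the *db/m* and 9.16, 9.37 and 8.94 in the *db/db* mice. The highest and the lowest belonged to replicates 3, whose rho with length was -0.53 and 0.61, and the part of length was not tested. Under treatment (*db/db*-dapa against *db/db*) the 14 subunits ran from -0.47 for Cox5b to 0.24 for Ndufs1. Of these subunits 7 were fitted higher and 7 lower, with a median of 0.0015. With the length trend removed, Cox5b was at -0.23 and Ndufs1 at 0.19. In that comparison the 4 assembly factors of complex II ran from -0.37 for Sdhaf4 to 0.50 for Sdhaf3, which had few counts. The 6 carriers of cycle intermediates ran from -0.022 for Slc25a12, an aspartate-glutamate carrier, to 0.15 for Slc25a10, the dicarboxylate carrier. The 6 regulators of mitochondrial genes ran from -0.24 for Ppargc1b, a coactivator, to 0.24 for Gabpa, a subunit of an ETS factor.

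The counting limits some of these values. Ogdh had fractional counts in 9 of 9 mice, and Idh3b and Idh3g ended in a fraction of 0.5 in 2 and 1 mice. Idh3b shares 5 exonic bases with Nop56, which lies on the opposite strand, and whether the counting used strand is not stated. Fh1 overlaps Kmo on the opposite strand and Cs overlaps the small nucleolar RNA gene Gm23182, in both cases with 0 shared exonic bases.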

How the data were processed

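The citric acid cycle enzymes and the other gene lists were chosen with earlier results of these data known. The authors made stranded poly(A) libraries from TRIzol- and column-purified RNA and read them single-end, 101 bases, on an Illumina HiSeq. The submitters' processing notes name mm10, TopHat2 2.0.13, Bowtie2 2.2.3, SAMtools 0.1.19 and Cufflinks 2.2.1. The deposited table is named as FPKM but holds estimated counts: 90.9% of its values are whole and its columns sum to different totals. How these expected counts were made, and whether strand was used, is not given in the sources used here. Length bias of the libraries and reads shared between overlapping genes can therefore enter the values.

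The estimated counts were rounded, and edgeR 4.0.16 in R 4.3.3 was used for its quasi-likelihood test (earlier form, TMM scaling, total counts as library sizes). The 9 mice entered 1 fit without pairing. This count test was the planned one, because an earlier account of these data described the table as estimated counts. A test in limma was to replace it had the values proved to be FPKM. The filter, 0.3 CPM in 2 or more of the 9 mice, kept 15583 of 24421 rows, and 6100 rows held only zeros. The table has 0 unnamed rows, and 0 of its sample columns were unused. Adjustment followed Benjamini and Hochberg. A gene passed at an adjusted p under 0.1 and was called if it also had an absolute log2 fold change over 1. Mean levels and correlations used log2(CPM + 1), which understates changes of low genes. The common biological coefficient of variation was 0.259. A count of 3 equalled 1.02 CPM in the smallest library and 0.339 in the largest, which covers counting error only.

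The members are named with every value. From each other list, genes that passed in any comparison are named, and otherwise the highest and lowest for *db/db*-dapa against *db/db*. The rule also names the 5 genes whose levels were most like the mean of the members, of which 1 is not reported here. Coordinates and transcript lengths come from GENCODE on GRCm38 (23358 symbols found as written, 669 by an older symbol, 392 not found). Whether the replicate numbers shared by the labels pair mice was checked: deviations of same-numbered mice correlated between -0.32 and 0.56 over 9 pairs, so mice were left unpaired. DESeq2 1.42.0, limma 3.58.1, other scalings and filters, and leaving out each mouse were alternatives. Removing the length trend, leaving out the 3 libraries rich in long transcripts, and the newer form of edgeR were added after the data were seen. The tests and the removal of the length trend were tested on simulated data. Figures were drawn with matplotlib 3.10.9 in Python 3.11.15.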

Additional observations from a re-analysis of the deposited data

How the results depend on the processing

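With 3 mice per group and a median standard error of 0.17 on the log2 scale for the members, small differences could not be told from the spread between mice. Over 21 alternatives, 0 of the 9 members passed for *db/db* against *db/m* or for *db/db*-dapa against *db/db*, where their lowest adjusted p was 0.376 and 0.110. Between *db/db*-dapa and *db/m*, Suclg2 passed with DESeq2 (adjusted p = 0.0377), with limma-voom and sample weights (0.0121), in a fit of only the 2 groups (0.0901) and without *db/db* replicate 3 (0.0877), and Ogdh passed with sample weights (0.0489). Of 567 refitted values of members, 505 kept direction and side of the threshold, 57 changed sign and 5 passed. The cause of each change was not tested.

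The genes called numbered 194 (*db/db* against *db/m*), 164 (*db/db*-dapa against *db/m*) and 0 (*db/db*-dapa against *db/db*). With DESeq2 these counts were 363, 507 and 13. The later 2 of them were 1619 and 449 with sample weights, and 42 and 4 without the 3 libraries rich in long transcripts, a fit that leaves 1 *db/db*-dapa mouse and takes its spread from the other groups. The first 2 were 115 and 630 when only the groups compared were fitted, and 275 replaced 164 without a filter. With a mouse left out the counts ran from 84 (without *db/m* replicate 1) to 230 (without *db/db* replicate 3), from 14 (without *db/db*-dapa replicate 2) to 662 (without *db/db* replicate 3), and from 0 to 272 (without *db/db* replicate 3). With the replicate block they were 185, 167 and 0. Over all mice of the other groups, 4 of 9 mice (replicates 1 and 3 of *db/db* and of *db/db*-dapa) correlated best with one of their own number, and 0 of 9 did so within both other groups. The block moved no member across the threshold and turned Fh1 for *db/db*-dapa against *db/db* to 0.0043.

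For *db/db* against *db/m*, the median of the 9 members was 0.12 with libraries scaled to their totals, which also moved the median of all genes to 0.13, and 0.13 with the length trend removed. Sample weights, scaling to totals, the trend removed and the 3 libraries left out gave, in that order, 0.080, 0.075, 0.12 and 0.059 for Idh3g, 0.16, 0.095, 0.21 and 0.15 for Sdhb and 0.047, 0.037, 0.13 and 0.063 for Mdh2. Ogdh was -0.019 with sample weights and -0.033 without the 3 libraries. For *db/db*-dapa against *db/m*, the median was 0.19 with the trend removed and 0.024 without the 3 libraries. The trend removed gave 0.037 for Idh3g, 0.19 for Sdhb and 0.16 for Mdh2, and the 3 libraries left out gave -0.0050 for Idh3b, -0.040 for Fh1 and 0.026 for Mdh2. Fh1 was -0.0025 with DESeq2, -0.011 with sample weights, -0.0023 with RLE scaling and -0.0085 with a filter at 1 CPM in 3 mice. For *db/db*-dapa against *db/db*, Idh3b was -0.063 without the 3 libraries. Fh1 was 0.0073 and Mdh2 0.0089 with limma on log2(CPM + 1), Fh1 was 0.00025 without a filter, Mdh2 was 0.035 with the trend removed, and Slc25a12 was 0.16 with sample weights.

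Leaving out single mice turned the direction of several small differences. The ranges for *db/db* against *db/m* were -0.019 to 0.059 for Cs, -0.030 to 0.052 for Idh3b, -0.12 to 0.054 for Idh3g, -0.038 to 0.24 for Ogdh, -0.19 to 0.14 for Sdhb, -0.12 to 0.093 for Fh1 and -0.26 to 0.057 for Mdh2. Those for *db/db*-dapa against *db/m* were -0.032 to 0.058 for Fh1 and -0.16 to 0.010 for Mdh2. For *db/db*-dapa against *db/db* they were -0.0069 to 0.17 for Idh3a, -0.16 to 0.012 for Idh3g, -0.29 to 0.027 for Sdhb, -0.079 to 0.13 for Fh1, -0.13 to 0.18 for Mdh2, -0.76 to 0.13 for Me3, -1.16 to 0.81 for Pdk4, -0.48 to 0.00079 for Ppargc1b, -0.59 to 0.048 for Sdhaf4 and -0.13 to 0.18 for Slc25a12.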
